A study of Mus musculus with 42 samples.

Results

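Gsr, Gclc, Gclm, Gss, Txn1, Txnrd1, Prdx1, Srxn1, Nqo1 and Hmox1 are 10 mouse genes that defend cells against oxidants through glutathione, thioredoxin and linked enzymes. They were chosen by name, as the probes whose annotated symbol is 1 of the 10. On the first array design these were 10 probes of 21997, and 10 of the 14442 genes with a symbol. On the second design they were 14 probes of 36924, and 10 of 17501 genes. Gsr was 3.14-fold higher in carcinomas than in high-risk papillomas and than in normal skin. Txn1 was 6.59-fold higher in high-risk papillomas and 3.83-fold higher in low-risk papillomas than in normal skin, and Prdx1 was 2.26-fold higher in high-risk papillomas than in normal skin. The other 7 genes passed the test in none of the 6 comparisons. Gsr against high-risk papillomas lay just under the threshold (limma adjusted p = 0.0499), and Gclm between carcinomas and low-risk papillomas lay just over it (0.0507). Arrays fell in sets described below, and in a fit blocked by these sets only the call of Txn1 in high-risk papillomas was kept. That blocked call rests on 1 high-risk papilloma in set A and 1 in set D. Txn1 had values in 6 of 10 high-risk papillomas and 5 of 6 normal skins.

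The series followed skin tumours that were started in mice with DMBA, a mutagen, and promoted with TPA, a phorbol ester. RNA of whole tissue was hybridised on 2-colour oligonucleotide arrays against a universal mouse reference RNA, which served as the common partner of all samples and belonged to no group. The labelled samples of the first design were 6 squamous cell carcinomas, 10 high-risk papillomas, 9 low-risk papillomas and 6 normal skins, or 31 in all. A further 10 papillomas labelled as unknown were measured on the second design and entered no comparison.

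The carcinomas, which are malignant, and the papillomas, which are benign, came from female Sencar mice initiated at 7 to 8 weeks of age and given DMBA and TPA, for many weeks in the case of the carcinomas. The normal skins were untreated and adult, and their strain and sex are not given in the labels, so treatment, strain and sex cannot be told apart from tumour in a comparison with them. The labels do not define high and low risk. Each sample is labelled as a separate tumour or skin, but some tumours share a code and the animals are not listed, so p-values measure the spread between these samples. In whole tissue, fewer cells of a type and less RNA per cell cannot be told apart.

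Glutathione is a small peptide made in 2 steps, by glutamate-cysteine ligase and then glutathione synthetase, and glutathione reductase restores it after it has been oxidised. Thioredoxin passes electrons from thioredoxin reductase to peroxiredoxins, which destroy peroxides, and sulfiredoxin revives peroxiredoxins that have been overoxidised. Many of these genes are known targets of the transcription factor Nrf2, which Keap1 holds in check until oxidants or electrophiles release it, and the pathway is studied in skin because keratinocytes meet such agents daily.

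Nrf2 is known to bind DNA with small Maf proteins at antioxidant response elements, whose core can be written TGACNNNGC. The promoters of the genes were searched for these letters on both strands, from 250 bases before to 50 bases after each start, in the RefSeq table of build GRCm38.p6. The table held 7 of the 10 genes, with 9 promoters, and 4 genes had a match, Gclm, Txnrd1, Prdx1 and Srxn1. Of all 32851 promoters listed there 12.4% had one, as did 14.0% of 27025 genes. The 3 matches that lie before a start are shown because they bear on genes of the glutathione, thioredoxin and peroxiredoxin arms. They are written on the plus strand with the match in capitals, and all 3 matches read as the core on the minus strand.
Prdx1, chr4:116685436-116685504: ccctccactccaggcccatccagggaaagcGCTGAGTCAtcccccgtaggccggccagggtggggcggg
Gclm, chr3:122245393-122245461: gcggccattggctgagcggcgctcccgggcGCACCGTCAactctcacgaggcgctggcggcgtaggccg
Txnrd1, chr10:82859084-82859152: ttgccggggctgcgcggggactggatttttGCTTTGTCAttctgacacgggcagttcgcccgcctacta
The match of Prdx1 began at position -133 from the start, that of Gclm at -134 and that of Txnrd1 at -92 from the second of its 3 starts. In Prdx1 the match overlaps TGANTCA, the letters of an AP-1 element, searched on both strands, and AP-1 is a factor known to respond to phorbol esters. Among the 7 genes TGANTCA was found in Prdx1 and Srxn1, beside 8.97% of the 27025 genes and 7.81% of all promoters. These are matches of letters and were not tested for binding.

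Each value is a ratio to the reference RNA on the log2 scale, called a log2 level here, and levels of different genes are not compared because each is relative to that gene's own amount in the reference. The direction of the ratio is likely rather than stated. The labelled arrays held 16286 to 21494 values, and their number limits the precision. The arrays were cut by the pattern of empty probes into 5 sets, A to E, which partly coincide with the groups. The number of sets was fixed and not found from the data. The patterns of empty probes correlated at r = 0.063 to 0.684 within a set and -0.179 to 0.267 between sets. These ranges overlap, so the sets are not sharply separated. Because empty probes made the sets, a gene empty throughout a set is partly a result of that cut. In set A there were 1 high-risk papilloma and 4 normal skins, in set B only low-risk papillomas (6) and in set E only high-risk papillomas (4). Set C held 2 carcinomas, 4 high-risk papillomas and 1 normal skin, and set D 4 carcinomas, 1 high-risk papilloma, 3 low-risk papillomas and 1 normal skin. Normal skin 1 and carcinoma 6, both of set C, were nearly identical, with a median difference of 0.06 on the log2 scale over 14828 probes, against 0.18 for the next closest pair, so results that rest on them are given without them too. Low-risk papilloma 1 is the mean of an array and a dye-swapped array that 1 label names as the same tumour reversed, while its title gives another number, low-risk 3. The swapped array correlated with its partner at r = 0.306 across probes, within its range of 0.189 to 0.629 with the other labelled arrays, and the 2 differed for Gsr by sign (-1.51 on the swapped array and 1.05 on the other). Whether they hold 1 tumour is therefore uncertain, and low-risk papillomas count as 9 samples on that label alone. Markers of keratinocytes, 10 of 12 measured, had a mean log2 level of 1.10 to 2.36 in carcinomas, 1.18 to 4.10 in high-risk papillomas, 2.04 to 4.02 in low-risk papillomas and 1.16 to 2.69 in normal skin. These levels were above the reference in all 31 samples. The markers are among the skin genes from which the direction of the ratio was inferred, so that sign is no separate evidence.

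**Figure D1:**
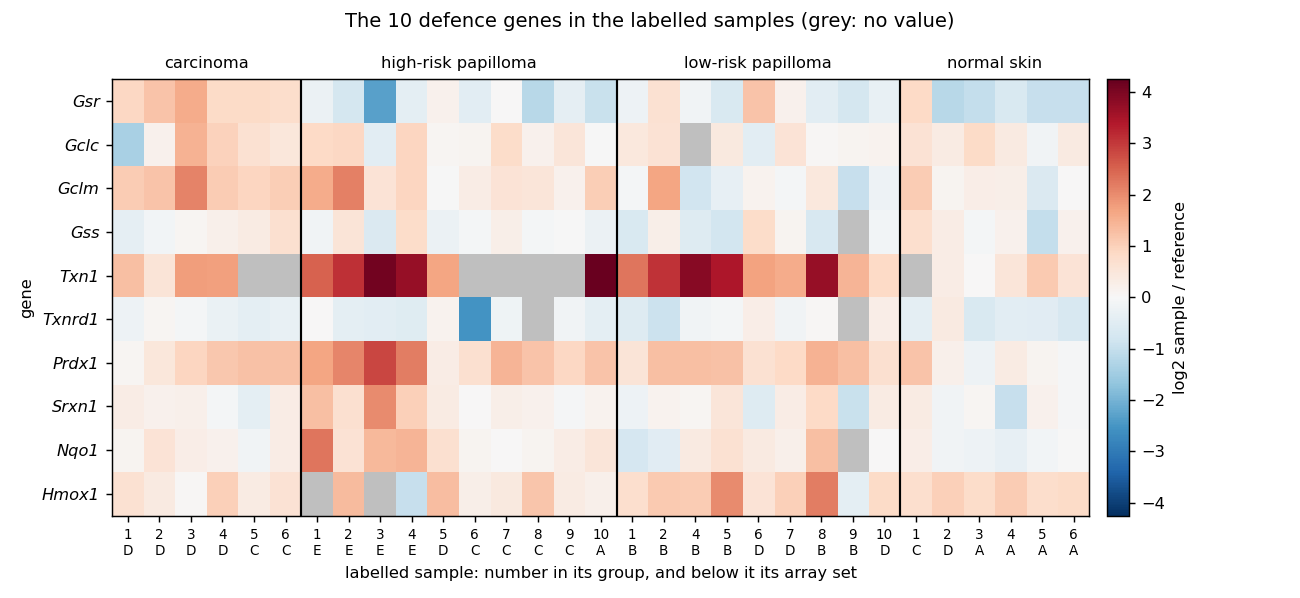
Log2 level (colour, sample over reference) of the 10 genes (rows) in the 31 labelled samples (columns), in the order carcinoma, high-risk papilloma, low-risk papilloma and normal skin, with the sample number and the array set below. The Txn1 row is dark in high-risk and low-risk papillomas and empty (grey) on all 7 arrays of set C, while the Gsr row is above 0 in all 6 carcinomas.

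All 10 genes passed the filter on empty values. Gsr, Gclm, Prdx1 and Srxn1 were measured in 31 of 31 samples, Gclc, Gss and Nqo1 in 30, Txnrd1 and Hmox1 in 29, and Txn1 in 24.

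Gsr encodes glutathione reductase, which returns oxidised glutathione to its reduced form with electrons from NADPH. The lowest, median and highest log2 levels were 0.74, 0.85 and 1.57 in carcinomas, -2.32, -0.43 and 0.17 in high-risk papillomas, -0.76, -0.23 and 1.21 in low-risk papillomas and -1.16, -0.98 and 0.86 in normal skin. Every carcinoma lay above every high-risk papilloma, and the 6 carcinomas overlapped only with low-risk papilloma 6 and with normal skin 1. Carcinomas exceeded high-risk papillomas by 1.65 ± 0.33 (SE), or 3.14-fold (limma adjusted p = 0.0499). In that comparison 8 of the 18904 probes tested, 1 for each gene symbol where there is one, were called, or 0.0423%. Carcinomas exceeded normal skin by 1.65 ± 0.37, or 3.14-fold (adjusted p = 0.0197), in a comparison where 1.16% of probes were called. The order of the means was 1.00 ± 0.32 in carcinomas (SD, n = 6), -0.05 ± 0.64 in low-risk papillomas (SD, n = 9), -0.65 ± 0.72 in high-risk papillomas (SD, n = 10) and -0.65 ± 0.76 in normal skin (SD, n = 6). The difference between carcinomas and low-risk papillomas, the next in that order, was 1.05 ± 0.34 and did not pass (adjusted p = 0.105), except without low-risk papilloma 6 among the fits that left out 1 sample (adjusted p = 0.0318).

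Without normal skin 1 and carcinoma 6, Gsr averaged 1.05 ± 0.33 in the other 5 carcinomas (SD) and -0.95 ± 0.19 in the other 5 normal skins (SD), and the difference was 2.00 (adjusted p = 0.00191). Against high-risk papillomas it was then 1.70 (adjusted p = 0.0239). A fit blocked by array set gave differences of 1.19 against normal skin (adjusted p = 0.56) and 1.35 against high-risk papillomas (adjusted p = 1.0), and neither was called. In the latter comparison that fit called 0 of all probes. With that block and without normal skin 1 and carcinoma 6 the differences were 1.83 (limma adjusted p = 0.084) and 1.35, and neither was called. Within set C the 2 carcinomas lay between 0.74 and 0.81 and the 4 high-risk papillomas between -1.18 and 0.03, while the single normal skin, number 1, was at 0.86, which turned that difference to -0.08. Within set D the 4 carcinomas lay between 0.80 and 1.57, the 1 high-risk papilloma was at 0.17 and the 1 normal skin at -1.16. The carcinomas were therefore above the high-risk papillomas in both sets that held them. Over 48 alternatives, fits within a set not counted, the adjusted p against normal skin ran from 4.96e-06 to 0.56 and was under 0.05 in 41, and against high-risk papillomas it ran from 0.000868 to 1.0 and was under 0.05 in 16. Leaving out 1 sample at a time ended the call against normal skin for normal skins 2, 5 and 6 and carcinoma 3 (adjusted p up to 0.0641), and the call against high-risk papillomas for all samples but low-risk papillomas 6, 8 and 9, normal skin 1 and high-risk papillomas 5, 7 and 9 (adjusted p up to 0.201, and under 0.05 in 7 of 31 fits).

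**Figure D2:**
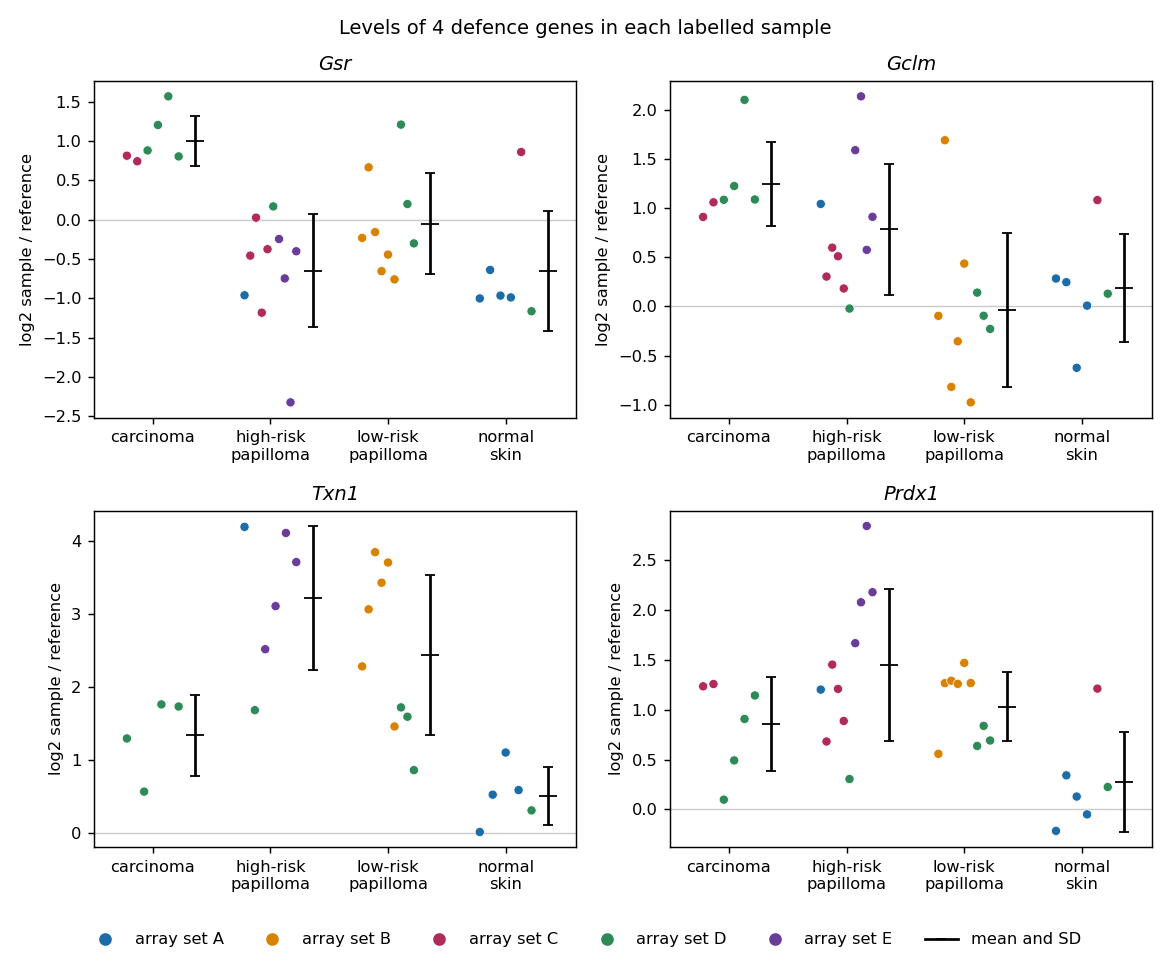
Log2 levels (y axis, sample over reference) of Gsr, Gclm, Txn1 and Prdx1 in each labelled sample by group, with colours for the array set and bars for the mean and SD. The 6 Gsr values of carcinomas sit from 0.74 to 1.57, above all 10 high-risk papillomas, and the 6 Txn1 values of high-risk papillomas sit from 1.68 to 4.20, above all 5 measured normal skins.

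Gclc and Gclm encode the catalytic and the modifier subunit of glutamate-cysteine ligase, the rate-limiting enzyme of glutathione synthesis. Gclm had lowest, median and highest log2 levels of 0.91, 1.08 and 2.10 in carcinomas, -0.02, 0.59 and 2.13 in high-risk papillomas, -0.98, -0.10 and 1.69 in low-risk papillomas and -0.62, 0.19 and 1.08 in normal skin. The carcinomas lay above 8 of the 9 low-risk papillomas and above 5 of the 6 normal skins, low-risk papilloma 2 and normal skin 1 being within their range. Carcinomas exceeded low-risk papillomas by 1.28 ± 0.34, or 2.42-fold, with an adjusted p of 0.0507 in limma, where 1.12% of probes were called. Neither the difference from normal skin (1.06 ± 0.37, adjusted p = 0.181) nor that between high-risk and low-risk papillomas (0.82 ± 0.29, adjusted p = 0.155) passed. Over 48 alternatives the adjusted p between carcinomas and low-risk papillomas ran from 0.00141 to 0.538 and was under 0.05 in 13, among them quantile normalization (1.81, adjusted p = 0.00546) and the fit without low-risk papilloma 2 (1.49, adjusted p = 0.0114). Leaving out low-risk papilloma 6, normal skin 1 or high-risk papilloma 1, 2 or 5 also brought it under 0.05. Within set D, the 4 carcinomas lay from 1.08 to 2.10 and the 3 low-risk papillomas from -0.23 to 0.14, with no overlap (difference 1.43, adjusted p = 0.121).

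Gclc, the catalytic subunit, did not differ past the test in any comparison. Its means were 0.40 ± 0.98 in carcinomas (SD, n = 6), 0.38 ± 0.47 in high-risk papillomas (SD, n = 10), 0.25 ± 0.35 in low-risk papillomas (SD, n = 8) and 0.39 ± 0.32 in normal skin (SD, n = 6). The wide SD of the carcinomas came with carcinoma 1 at -1.37 and carcinoma 3 at 1.49. Gss, the synthetase that adds glycine in the last step, also passed in no comparison, with medians of 0.15 in carcinomas, -0.08 in high-risk papillomas, -0.33 in low-risk papillomas and 0.17 in normal skin. Its largest difference was 0.34 ± 0.27 between carcinomas and low-risk papillomas (adjusted p = 0.561). Gclc and Gclm, although subunits of 1 enzyme, had a Pearson r of 0.36 over 30 samples (permutation p = 0.0516, adjusted p = 0.193) and a Spearman rho of 0.46 (permutation p = 0.0125, adjusted p = 0.0804). Without carcinomas 1 and 3, the 2 samples farthest from the Gclc median, r was 0.46, and after the mean of each array set was taken off it was 0.34.

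Txn1 encodes cytosolic thioredoxin, the small protein that hands electrons to peroxiredoxins and other targets. Its log2 levels were 0.56, 1.29, 1.73 and 1.76 in the 4 carcinomas with a value. In the 6 high-risk papillomas with a value the lowest, median and highest were 1.68, 3.42 and 4.20, and in the 9 low-risk papillomas 0.86, 2.28 and 3.85. The 5 normal skins with a value had 0.01, 0.31, 0.52, 0.59 and 1.10. The high-risk papillomas did not overlap with normal skin, and of the low-risk papillomas only number 10, the lowest, fell within the range of normal skin. High-risk papillomas exceeded normal skin by 2.72 ± 0.52, or 6.59-fold (limma adjusted p = 0.00392), where 5.03% of probes were called. Low-risk papillomas exceeded it by 1.94 ± 0.48, or 3.83-fold (adjusted p = 0.0144), where 7.59% of probes were called. Carcinomas were at 1.34 ± 0.56 (SD, n = 4), lower than high-risk papillomas at 3.23 ± 0.99 (SD, n = 6) by a difference of -1.89 ± 0.55 that did not pass (adjusted p = 0.216). Low-risk papillomas averaged 2.44 ± 1.10 (SD, n = 9) and normal skin 0.51 ± 0.40 (SD, n = 5), so the means ran high-risk, low-risk, carcinoma, normal skin, and no neighbours in that order differed past the test.

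The Txn1 values moved with the array sets. In set D, which held all 4 groups, the means were 1.34 in 4 carcinomas, 1.68 in 1 high-risk papilloma and 1.39 in 3 low-risk papillomas, against 0.31 in the 1 normal skin. The high values came from set B (6 low-risk papillomas, 1.46 to 3.85), set E (4 high-risk papillomas, 2.52 to 4.12) and the high-risk papilloma of set A at 4.20, whose 4 normal skins on the same set lay between 0.01 and 1.10. Sets B and E also had the widest arrays over all probes (median SD 1.57 and 1.59). Blocked by array set, the difference of high-risk papillomas from normal skin was 2.77 (adjusted p = 0.0413), and that of low-risk papillomas was 1.78 (adjusted p = 0.628) and no longer called. Only sets A and D held Txn1 values of both high-risk papillomas and normal skin, with 1 high-risk papilloma in each. The blocked difference therefore rests on these tumours, at 4.20 in set A and 1.68 in set D. On scale-normalized arrays the high-risk difference was 1.87 (adjusted p = 0.015). Fits within a set were not counted among the 47 alternatives, of which 31 left out 1 sample. Over these alternatives the adjusted p for high-risk papillomas ran from 0.000606 to 0.0526, under 0.05 in all but the block by database number. For low-risk papillomas it ran from 0.00521 to 0.628 and was under 0.05 in 43. Within set D, with 1 normal skin, the differences were 1.377 in the high-risk and 1.085 in the low-risk papillomas, and neither was called. Leaving out normal skin 3 gave an adjusted p of 0.0503 for low-risk papillomas.

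Txnrd1, the cytosolic thioredoxin reductase that recharges thioredoxin, did not follow Txn1. Its lowest, median and highest log2 levels were -0.42, -0.24 and 0.10 in carcinomas, -2.54, -0.42 and 0.16 in high-risk papillomas, -0.92, -0.11 and 0.29 in low-risk papillomas and -0.69, -0.46 and 0.39 in normal skin. The 4 groups overlapped, and the largest difference, between high-risk and low-risk papillomas, was -0.34 ± 0.26 (adjusted p = 0.514). Between Txn1 and Txnrd1 r was -0.18 over 23 samples (permutation p = 0.409, adjusted p = 0.635) and rho was -0.11 (permutation p = 0.611, adjusted p = 0.833). It was -0.11 without high-risk papillomas 3 and 10, and 0.03 with the means of the array sets taken off.

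Prdx1 encodes a cytosolic peroxiredoxin, a thioredoxin-dependent enzyme that destroys hydrogen peroxide. The lowest, median and highest log2 levels were 0.10, 1.03 and 1.26 in carcinomas, 0.30, 1.33 and 2.85 in high-risk papillomas, 0.56, 1.26 and 1.47 in low-risk papillomas and -0.22, 0.18 and 1.21 in normal skin. All 10 high-risk and all 9 low-risk papillomas lay above the mean of normal skin, and both papilloma groups overlapped with normal skin 1, the highest of its group. High-risk papilloma 5, at 0.30, also lay below normal skin 4, at 0.34. High-risk papillomas exceeded normal skin by 1.18 ± 0.29, or 2.26-fold (limma adjusted p = 0.0168). The difference of low-risk papillomas was 0.76 ± 0.30 (adjusted p = 0.114, and 0.0480 without normal skin 1) and that of carcinomas 0.58 ± 0.33 (adjusted p = 0.541). The means ran 1.45 ± 0.77 in high-risk papillomas (SD, n = 10), 1.03 ± 0.35 in low-risk papillomas (SD, n = 9), 0.86 ± 0.47 in carcinomas (SD, n = 6) and 0.27 ± 0.50 in normal skin (SD, n = 6), and no neighbours in this order differed past the test. Without normal skin 1 and carcinoma 6 the high-risk difference was 1.37 (adjusted p = 0.00476).

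The Prdx1 values also moved with the array sets, of which set E had the highest median array SD (1.59) and set C the lowest (0.70). The 4 high-risk papillomas of set E lay from 1.67 to 2.85, the 4 of set C from 0.68 to 1.45, the only one of set D was at 0.30, and the only one of set A, at 1.202, lay within the range of set C. Blocked by set, the difference of high-risk papillomas from normal skin was 0.41 (adjusted p = 0.592). With that block and without normal skin 1 and carcinoma 6 it was 0.71 (limma adjusted p = 0.325). Within set A it was 1.15 (adjusted p = 0.0589), within set D 0.08 (adjusted p = 1.0), and within set C, where normal skin 1 is the only one of its group, -0.15 (adjusted p = 0.84). Over 48 alternatives the adjusted p ran from 0.00104 to 0.592 and was under 0.05 in 42, and leaving out normal skin 3 or 6 ended the call (adjusted p up to 0.0584).

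Srxn1 encodes sulfiredoxin, which restores overoxidised peroxiredoxins, and Nqo1 encodes a quinone reductase that is a classic target of Nrf2. Both had their highest mean in high-risk papillomas, with differences from normal skin of 0.68 ± 0.28 for Srxn1 (adjusted p = 0.159) and 0.84 ± 0.29 for Nqo1 (adjusted p = 0.0866), and neither passed. Nqo1 passed after quantile normalization (0.77, adjusted p = 0.0370) and scale normalization (0.70, adjusted p = 0.0411), and over its 47 alternatives the adjusted p ran from 0.0370 to 0.691. Srxn1 had lowest, median and highest log2 levels of -0.42, 0.20 and 0.33 in carcinomas, -0.05, 0.30 and 1.99 in high-risk papillomas, -0.95, 0.15 and 0.84 in low-risk papillomas and -0.97, 0.01 and 0.33 in normal skin. Nqo1 had -0.13, 0.24 and 0.58 in carcinomas, 0.02, 0.57 and 2.27 in high-risk papillomas, -0.72, 0.29 and 1.28 in low-risk papillomas and -0.35, -0.13 and 0.28 in normal skin. All 10 high-risk papillomas lay above the mean of normal skin for both genes, and the 3 highest of each gene were of array set E. In set E the 4 high-risk papillomas averaged 1.24 for Srxn1 (0.67 to 1.99) and 1.42 for Nqo1 (0.63 to 2.27), while in set C the 4 others averaged 0.10 for Srxn1 (-0.05 to 0.23) and 0.14 for Nqo1 (0.02 to 0.31). Set E held no other group and had the highest median array SD (1.59, against 0.70 in set C). Set, spread of the arrays and tumour therefore cannot be told apart there.

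**Figure D3:**
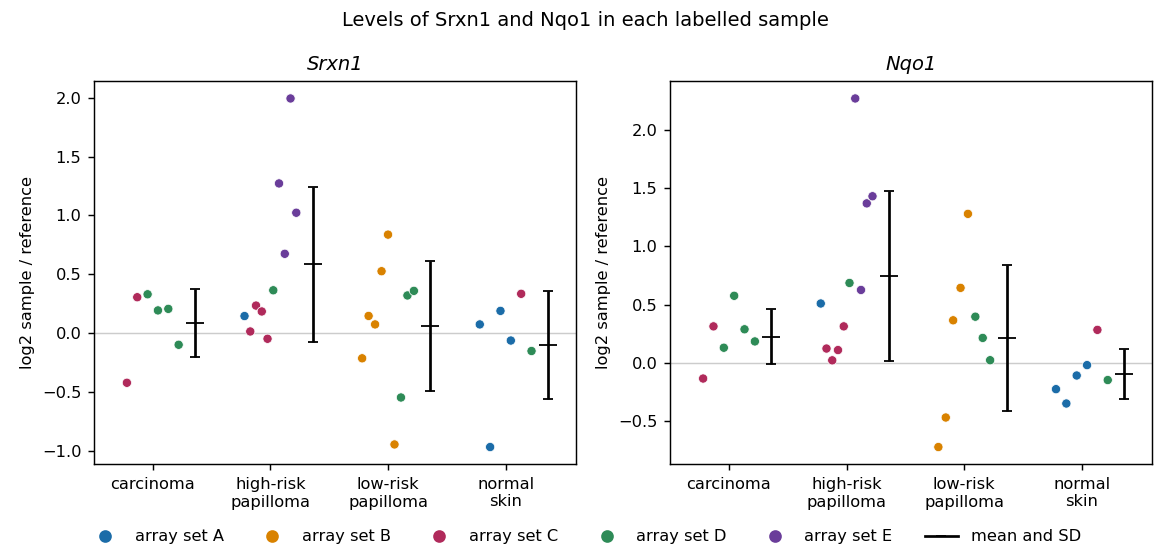
Log2 levels (y axis, sample over reference) of Srxn1 and Nqo1 in each labelled sample by group, with colours for the array set and bars for the mean and SD. The 4 high-risk papillomas of set E are the upper values of that group for Srxn1, from 0.67 to 1.99.

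Hmox1 encodes the inducible haem oxygenase, which breaks down haem to biliverdin, iron and carbon monoxide. Its lowest, median and highest log2 levels were 0.05, 0.49 and 1.02 in carcinomas, -0.98, 0.39 and 1.34 in high-risk papillomas, -0.42, 1.01 and 2.18 in low-risk papillomas and 0.72, 0.80 and 1.07 in normal skin. The tumours spread to both sides of normal skin, whose SD of 0.14 was the smallest among the 4 groups for this gene. No difference passed, and the largest were -0.50 ± 0.32 between carcinomas and low-risk papillomas (adjusted p = 0.466) and -0.50 ± 0.30 between high-risk and low-risk papillomas (adjusted p = 0.391).

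Counted over the 10 genes, 1 was higher in carcinomas than in normal skin (beside 1.16% of all probes called), 2 in high-risk papillomas (beside 5.03%) and 1 in low-risk papillomas (beside 7.59%), and none was lower. Carcinomas differed from high-risk papillomas in 1 gene (beside 0.0423%) and from low-risk papillomas in 0 (beside 1.12%). High-risk differed from low-risk papillomas in 0 genes, where 0.667% of all probes were called. At an unadjusted p under 0.05 limma gave, of the 10 genes, 2 in carcinomas, 4 in high-risk papillomas and 2 in low-risk papillomas over normal skin, beside 11.3%, 19.7% and 23.4% of all probes. It gave 3 between carcinomas and low-risk papillomas, 3 between carcinomas and high-risk papillomas and 2 between high-risk and low-risk papillomas, beside 16.1%, 10.5% and 17.3%. The median log2 difference of the 10 genes, beside that of all probes tested, was 0.25 against -0.002 for carcinomas over normal skin, 0.30 against -0.004 for high-risk papillomas and 0.19 against -0.02 for low-risk papillomas. It was 0.02 against -0.007 between carcinomas and low-risk papillomas, 0.008 against -0.01 between carcinomas and high-risk papillomas and 0.31 against 0.02 between high-risk and low-risk papillomas. The 6 comparisons share their groups, so their counts are not separate evidence.

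**Figure D4:**
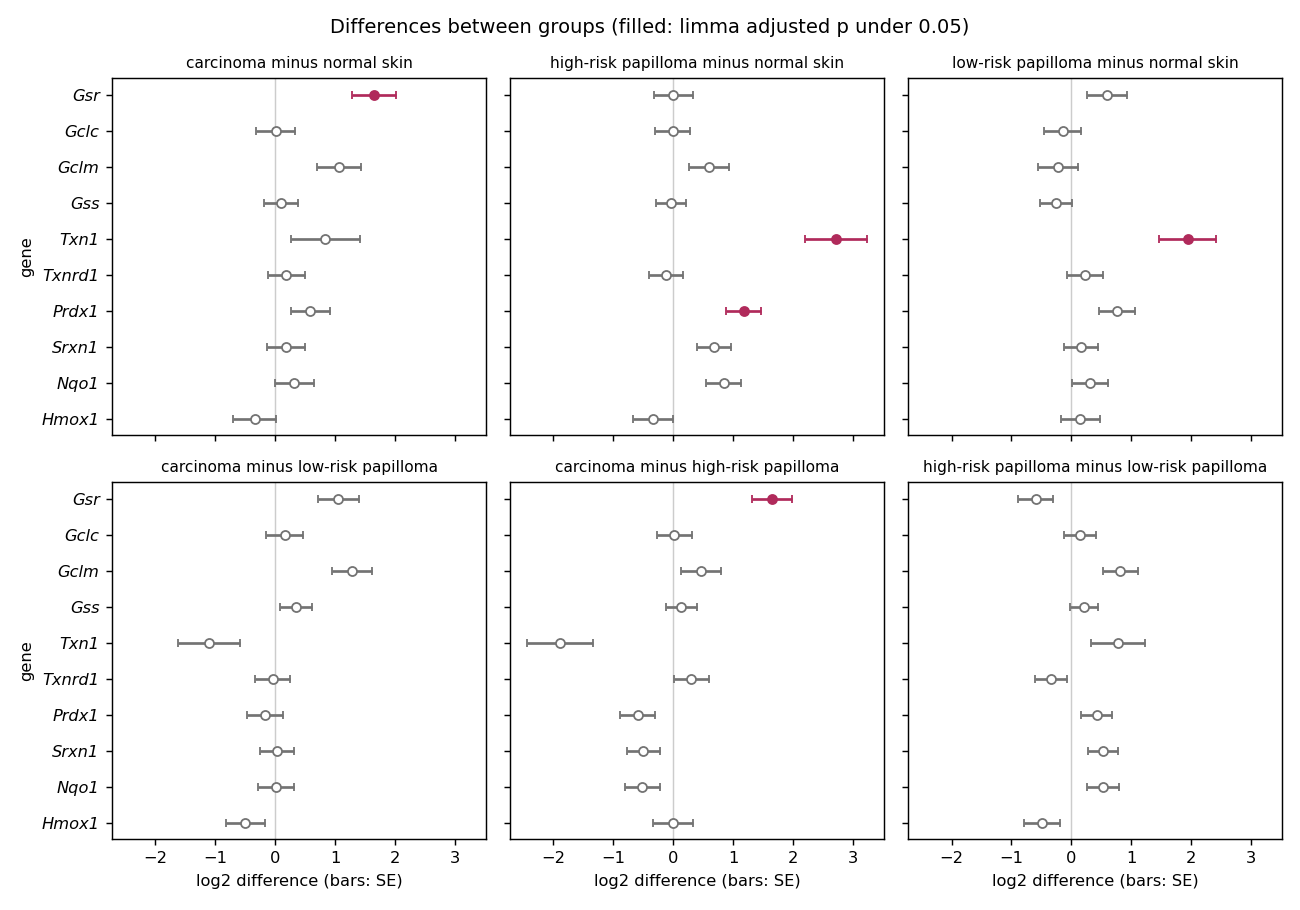
Log2 difference of group means (x axis, bars SE) of the 10 genes in the 6 comparisons, with filled points where the limma adjusted p was under 0.05. Filled points are Gsr for carcinomas over normal skin and over high-risk papillomas, Txn1 for both papilloma groups over normal skin, and Prdx1 for high-risk papillomas over normal skin.

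Among themselves the 10 genes gave 45 pairs, of which 5 had an adjusted permutation p under 0.05, and the median r was 0.09. Pairs beyond the highest, the lowest, Gclc with Gclm and Txn1 with Txnrd1 were named after their values were seen. The highest was Prdx1 with Txn1, r = 0.82 over 24 samples (permutation p = 1e-05, the smallest that 100000 permutations can give, adjusted p = 0.000225) and rho = 0.82 (adjusted p = 0.00045). It was 0.78 without high-risk papillomas 3 and 4, 0.73 with the means of the array sets taken off and 0.59 with those of the groups taken off. Nqo1 and Srxn1 gave r = 0.77 over 30 samples (permutation p = 1e-05, adjusted p = 0.000225), rho = 0.68 (adjusted p = 0.000675) and 0.72 without high-risk papillomas 1 and 4, but 0.51 with set means taken off. The other 3 were Nqo1 with Prdx1 (r = 0.61, adjusted permutation p = 0.00551, rho = 0.54 with adjusted permutation p = 0.0348), Prdx1 with Srxn1 (r = 0.60, adjusted permutation p = 0.00551, rho = 0.47 with adjusted permutation p = 0.0645) and Srxn1 with Txn1 (r = 0.55, adjusted permutation p = 0.036, rho = 0.47 with adjusted permutation p = 0.111). The last 2 pairs did not pass by rank. With set means taken off their r was 0.23, 0.21 and 0.44. The lowest was Gss with Hmox1 at r = -0.43 over 28 samples (permutation p = 0.0232, adjusted p = 0.118) and rho = -0.25 (permutation p = 0.197, adjusted p = 0.441). It was -0.38 without normal skin 5 and low-risk papilloma 5 and -0.13 with set means taken off. Since levels moved with the sets, a pooled correlation includes differences between sets.

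Among 4209 genes measured in every labelled sample, those most like Gsr by Pearson r over 31 samples were Hacd1 (0.71), Sdcbp (0.68) and Tuba3b (0.68). Prdx1 was most like Sec61g (0.92), Snrpe (0.91) and Rpl38 (0.91), which encode a subunit of the protein translocation channel, a splicing protein and a ribosomal protein. Txn1, over its 24 samples, was most like Usp4 (0.87), Rpl39 (0.87) and Fam162a (0.86). These are descriptions of likeness and carry no test.

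Of 85 other genes of the pathway in 8 lists, 71 were tested. Limma called 2 higher and 0 lower in carcinomas over normal skin (2.82% of the list genes), 4 higher and 4 lower in high-risk papillomas (11.3%) and 6 higher and 4 lower in low-risk papillomas (14.1%), beside the shares of all genes given above. It called 4 higher in carcinomas than in low-risk papillomas (5.63%), 0 between carcinomas and high-risk papillomas, beside 8 of all probes, and 1 higher in high-risk than in low-risk papillomas (1.41%). The median log2 difference of the list genes over normal skin was 0.21 in carcinomas, 0.11 in high-risk papillomas and -0.004 in low-risk papillomas. Without normal skin 1 and carcinoma 6 the counts against normal skin were 6 for carcinomas, 13 for high-risk papillomas and 17 for low-risk papillomas, where the same fit called 2.58%, 7.22% and 8.09% of all probes. Blocked by array set, the fit called 0 of these genes in each comparison, and over normal skin it called 0.0741% of all probes in carcinomas, 0.222% in high-risk papillomas and 0.037% in low-risk papillomas. Between the tumour groups the blocked fit called 0 of all 18904 probes, so the 0 list genes there say nothing particular about the lists. Of the 25 calls, 7 were kept in each of the 31 fits that left out 1 sample, namely Ftl1 in both of its comparisons and Nfe2l2, Glrx, Pgd and Sod1 in low-risk papillomas and Gstz1 in high-risk papillomas over normal skin, and the other 18 were lost in at least 1 fit. Fewest fits kept Gsta2 in carcinomas (7) and Txn2 in low-risk papillomas (8) over normal skin, and Blvrb in carcinomas over low-risk papillomas (9). Next came Sod1 in high-risk over low-risk papillomas (12), then Slc40a1 (13) and Txnrd2 (15) in high-risk papillomas over normal skin.

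Among 9 tested regulators, Nfe2l2, which encodes Nrf2 itself, was 3.08-fold higher in high-risk papillomas than in normal skin (1.62 ± 0.40, adjusted p = 0.0167) and 3.20-fold higher in low-risk papillomas (1.68 ± 0.41, adjusted p = 0.0110). Its lowest, median and highest log2 levels were 1.13, 1.40 and 1.75 in carcinomas, 0.33, 1.75 and 3.00 in high-risk papillomas, 1.00, 1.14 and 3.10 in low-risk papillomas and -1.08, -0.08 and 1.85 in normal skin. All 25 tumours lay above 5 of the 6 normal skins, whose sixth, normal skin 1, was at 1.85. In carcinomas the difference was 1.37 and did not pass (adjusted p = 0.149), whereas without normal skin 1 and carcinoma 6 it was 1.67 (adjusted p = 0.0403). Blocked by array set the differences were 0.89 in high-risk papillomas (adjusted p = 0.444) and 0.84 in low-risk papillomas (adjusted p = 0.889). With that block and without normal skin 1 and carcinoma 6 they were 1.95 in high-risk papillomas (adjusted p = 0.0249) and 1.53 in low-risk papillomas (adjusted p = 0.268). Leaving out normal skin 3 or 6 ended the call in high-risk papillomas (adjusted p up to 0.0662). Within set A the high-risk papilloma was at 2.17 and the 4 normal skins between -1.08 and -0.02. Cul3, the ubiquitin ligase scaffold with which Keap1 marks Nrf2 for breakdown, was lower in high-risk papillomas than in normal skin (-1.03 ± 0.30, adjusted p = 0.0405), a call lost in 10 of the 31 fits that left out 1 sample.

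Of 11 tested genes of glutathione peroxidation, glutaredoxins and turnover, Glrx was called, 3.79-fold higher in low-risk papillomas than in normal skin (1.92 ± 0.48, adjusted p = 0.0122). Glrx encodes glutaredoxin, which removes glutathione from protein thiols, and its levels of 1.00 to 4.33 in low-risk papillomas did not overlap with 0.28 to 0.93 in normal skin. Gpx2, an epithelial glutathione peroxidase, missed the threshold there (1.71 ± 0.57, adjusted p = 0.0592). Of 11 other genes of the thioredoxin system, Txnrd2, the mitochondrial reductase, was lower than in normal skin in high-risk papillomas (-1.26 ± 0.37, adjusted p = 0.0429) and in low-risk papillomas (-1.25 ± 0.37, adjusted p = 0.0352). Txn2, mitochondrial thioredoxin, was higher in low-risk papillomas (0.69 ± 0.22, adjusted p = 0.0498), a call that 8 of 31 fits without 1 sample kept, and Prdx4, a peroxiredoxin of the endoplasmic reticulum, was at 1.29 ± 0.40 between carcinomas and low-risk papillomas without passing (adjusted p = 0.102).

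Of 16 tested glutathione transferases, which join glutathione to electrophiles, Gsta1 was 4.52-fold higher in high-risk papillomas (adjusted p = 0.0309) and 4.85-fold higher in low-risk papillomas (adjusted p = 0.0160) than in normal skin. Gsta2 was 4.13-fold higher in carcinomas (adjusted p = 0.0489), a call that 7 of 31 fits without 1 sample kept, and 3.65-fold higher in low-risk papillomas (adjusted p = 0.0163). The 2 genes are near-identical copies, and whether their probes tell them apart was not tested. Gsta1 lay between -1.97 and -1.06 in normal skins of sets A and D and at 2.32 in normal skin 1, and without that sample and carcinoma 6 its difference in carcinomas was 2.60 (adjusted p = 0.00921). Gstm1 was higher in high-risk papillomas (1.14 ± 0.31, adjusted p = 0.0271). Gstz1, which also serves tyrosine breakdown, was 3.36-fold lower in high-risk papillomas than in normal skin (-1.75 ± 0.36, adjusted p = 0.00478), and each of the 31 fits without 1 sample kept that call.

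Among 6 tested genes of NADPH supply, Pgd, an enzyme of the pentose phosphate pathway, was 2.51-fold higher in low-risk papillomas than in normal skin (1.33 ± 0.33, adjusted p = 0.0153), from 0.36 to 2.11 in low-risk papillomas and from -0.40 to 0.20 in normal skin without overlap. Taldo1, of the same pathway, was at 1.08 ± 0.41 in high-risk papillomas over normal skin and did not pass (adjusted p = 0.127). Of the 4 genes that remove superoxide and peroxide, Sod1 and Sod3, the cytosolic and the extracellular superoxide dismutase, were lower in low-risk papillomas than in normal skin (-1.37 ± 0.31, adjusted p = 0.0066, and -1.73 ± 0.48, adjusted p = 0.0268). Both were higher in carcinomas than in low-risk papillomas (1.26 ± 0.31, adjusted p = 0.0386, and 2.09 ± 0.46, adjusted p = 0.0236), and Sod1 was also higher in high-risk than in low-risk papillomas (1.12 ± 0.27, adjusted p = 0.0448). All 5 of these calls of Sod1 and Sod3 were lost after quantile and after scale normalization (adjusted p from 0.194 to 0.667).

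Of 7 tested haem and iron partners of Hmox1, Ftl1, the light chain of ferritin, was 3.70-fold higher in carcinomas than in normal skin (1.89 ± 0.38, adjusted p = 0.0107) and 3.71-fold higher than in low-risk papillomas (1.89 ± 0.36, adjusted p = 0.00917). Its lowest, median and highest log2 levels were -1.58, -0.31 and 0.49 in carcinomas, -3.14, -2.48 and -1.17 in low-risk papillomas and -3.06, -2.44 and -1.61 in normal skin. The lowest carcinoma, number 6 at -1.579, lay just above the highest normal skin, number 1 at -1.612, and these 2 are the near-identical pair. The carcinomas of set D, from -0.59 to 0.49, stood above those of set C at -1.58 and -1.41. Without the pair the difference of carcinomas was 2.26 from normal skin (limma adjusted p = 0.00147) and 2.11 from low-risk papillomas (0.00769). After scale normalization the difference from normal skin was 1.68 (adjusted p = 0.0560) and that from low-risk papillomas 0.98 (adjusted p = 0.329). Blvrb, a biliverdin reductase, was higher in carcinomas than in low-risk papillomas (0.93 ± 0.24, adjusted p = 0.0483), and Slc40a1, the iron exporter ferroportin, was lower in high-risk papillomas than in normal skin (-1.19 ± 0.36, adjusted p = 0.0457). Beside these, the 4 of 6 erythroid markers measured had mean log2 levels of -1.47 to 0.02 in carcinomas, -1.70 to 0.43 in high-risk papillomas, -1.81 to -0.25 in low-risk papillomas and -2.83 to -0.87 in normal skin, and their part in the result was not tested. Of 7 tested further targets of Nrf2, Ugdh, which makes UDP-glucuronate, was higher in high-risk papillomas (1.15 ± 0.33, adjusted p = 0.0385) and Ephx1, an epoxide hydrolase, lower in low-risk papillomas (-0.81 ± 0.24, adjusted p = 0.0379) than in normal skin, and Osgin1 was at 0.90 ± 0.25 between carcinomas and low-risk papillomas without passing (adjusted p = 0.0616).

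Single cell markers also differed from normal skin, and within a list they could go both ways. Of 7 tested T cell markers, limma called Cd2 (3.28) higher and Cd3e (-1.04) and Cd8a (-1.21) lower in low-risk papillomas. The 8 neutrophil markers had mean log2 levels of 0.48 to 1.32 in carcinomas, 0.27 to 2.29 in high-risk papillomas and 0.95 to 1.70 in low-risk papillomas, against -0.08 to 0.74 in normal skin, but the list did not move as a whole. S100a9 was called higher in all 3 tumour groups and S100a8 in both papilloma groups, and the other 6 markers passed in none. The median difference of the 8 from normal skin was 0.11 in carcinomas, 0.15 in high-risk papillomas and 0.03 in low-risk papillomas. S100a8 and S100a9 are also made by inflamed keratinocytes. Krt15, a keratin of basal cells and the hair follicle, was called lower in all 3 tumour groups, by a log2 difference of -3.001 in carcinomas, -2.37 in high-risk papillomas and -2.22 in low-risk papillomas. Of the same list, Sfn (2.75) and Pkp1 (2.37) were called higher in high-risk papillomas, and the median difference of the 10 keratinocyte markers from normal skin was -0.17 in carcinomas, 0.90 in high-risk papillomas and 0.91 in low-risk papillomas. Skeletal muscle markers, 7 of 8 measured, were at 0.12 to 1.34 in carcinomas, -0.47 to 0.87 in high-risk papillomas, -0.77 to 0.79 in low-risk papillomas and -0.23 to 1.83 in normal skin. The part of these cells in the differences of Gsr, Txn1 and Prdx1 was not tested.

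The 10 papillomas labelled unknown were measured on other probes, and their table was normalized separately, so their levels are described and not set against the groups. Their treatment was DMBA and TPA in female Sencar mice, and 1 of them is labelled as treated for many weeks. Prdx1, both probes of Nqo1 and Hmox1 were above the reference in all 10. Prdx1 had lowest, median and highest log2 levels of 0.07, 0.99 and 2.68, and Hmox1 had 0.62, 1.65 and 3.98. The Nqo1 probes had 0.44, 0.99 and 1.98 on the first and 0.15, 0.87 and 2.16 on the second. Gclm was above the reference in 8 of 10, at -0.18, 1.31 and 2.19. Gsr, at -1.47, -0.07 and 1.08, and Txn1, at -0.52, 0.27 and 1.41, spread to both sides of it with 5 above. Txnrd1 lay at -0.40, 0.10 and 1.90 and Gclc at -0.89, -0.36 and 0.33. Probes of 1 gene disagreed: the 2 Gss probes had medians of -0.18 and -0.94 with r = 0.31 between them, and the 3 Srxn1 probes had medians of 0.003, -0.20 and 0.55 with r of 0.33, -0.33 and -0.13 between pairs.

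**Figure D5:**
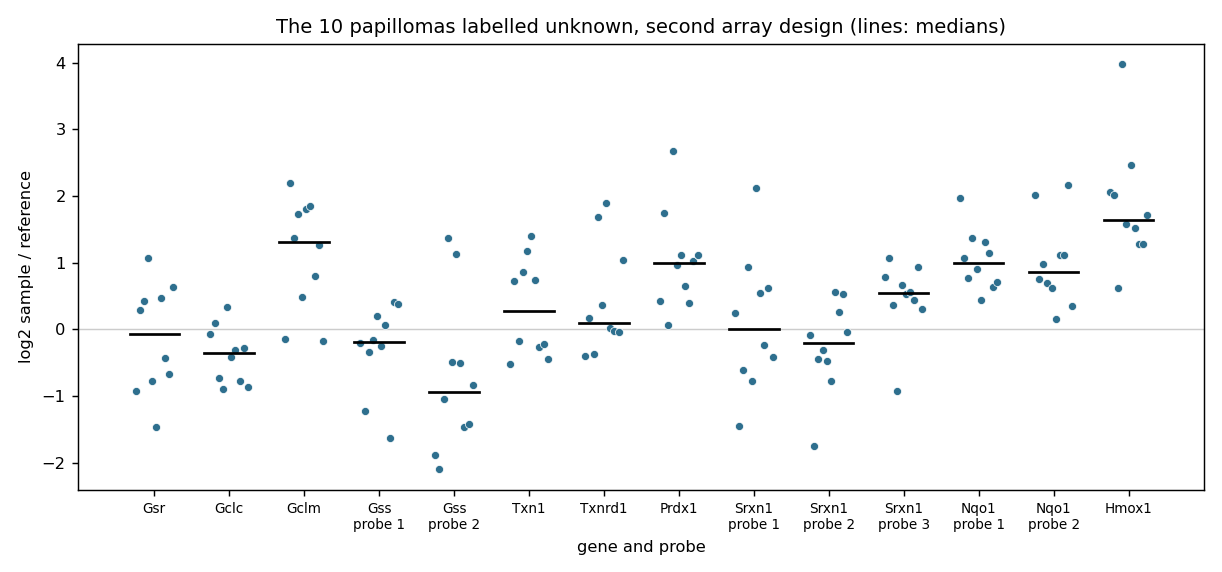
Log2 levels (y axis, sample over reference) of the 14 probes of the 10 genes in the 10 papillomas labelled unknown, with lines for the medians. Hmox1, Prdx1 and both Nqo1 probes lie above 0 in all 10, while the 2 Gss probes differ in median (-0.18 and -0.94).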

How the data were processed

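Each deposited value is a ratio between channels on the log2 scale, as computed by the authors. Its normalization and spot filters are not given in the sources used here, and base and direction were inferred from the values. Per the labels the sample was in Cy3 on 31 of the 32 labelled arrays. Cy5 over Cy3 is likely, since after turning the sign of those 31 arrays 11 genes of skin had a positive median on each labelled array.

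Arrays were turned to sample over reference and centred on the median, and the dye swap was averaged with the array that 1 label names as its tumour. Probes with at least 3 values in every group and 70% of the 31 samples were tested, 1 per symbol, 18904 in all, 13465 with a symbol. Symbols came from the platform annotation (first design: 16076 probes with 1, 288 several, 5633 none). Groups were compared in 1 limma model (limma 3.58.1, R 4.3.3), 2-sided, with Benjamini-Hochberg adjustment over all probes and a threshold of 0.05. The fit was tested on simulated data. It recovered 16% to 31% of probes changed by 1 on the log2 scale, by comparison. Of probes changed by 2 it recovered 75% to 84%, so a gene that did not pass may still differ. Tables were made with pandas 2.3.3.

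The genes and pathway lists were chosen with earlier results of these data known. Named are all 10 genes, each list gene past the test and the 2 with the smallest p per list, the 3 genes most like each called gene, and 4 pairs. The levels of Nfe2l2, Gsta1 and Ftl1 by set, and markers singled out by name, were chosen after their values were seen. Alternatives were other scalings, probe filters and weights, blocks by array set, database number, replicate number and shared code, and leaving out samples. Between groups, the 37 pairs of same-numbered samples had a median correlation of -0.0253 in their deviations from the group means. The 317 pairs of different numbers had a median of 0.00922. No pairing by number was seen, but a median cannot exclude sharing in single pairs.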

Additional observations from a re-analysis of the deposited data

Results flagged for a closer look

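In 5 of 40 groups of values 1 sample stood apart from the rest by Dixon's test, which by chance flags about 1 group in 20. Gsr was highest in normal skin 1 at 0.86, with the next normal skin at -0.64, and normal skin 1 is 1 of the near-identical pair with carcinoma 6. Gclm was highest among carcinomas in carcinoma 3 at 2.10, with the next at 1.22. Txnrd1 was lowest among the 9 measured high-risk papillomas in number 6 at -2.54, with the next at -0.50. It was highest among normal skins in number 2 at 0.39, with the next at -0.41. Srxn1 was lowest among normal skins in number 4 at -0.97, with the next at -0.15. The cause of these 5 values was not tested.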

How the results depend on the processing

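Of the log2 differences of single genes, 2694 values under an alternative kept their side of the threshold and their direction, 57 lost the call and 29 gained it. A further 159 turned sign without being called in either fit, among them Gclm in carcinomas (-0.097) and Nqo1 in high-risk papillomas (-0.141) over normal skin within array set C. Of the called values 2 reversed, namely Gsr in carcinomas over normal skin (-0.082) and Prdx1 in high-risk papillomas over normal skin (-0.154), both within array set C, where normal skin 1 is the only normal skin. The share of all probes called is not set beside the counts below, so no change in them can be read as particular to these genes. The counts of the 10 genes called were as follows. For carcinomas over normal skin, 1 as reported, it was 2 after quantile or scale normalization and with only the 2 groups, 3 with array weights, and 0 with the array set or the database number as a block, within sets C and D, and with a block by set after leaving out the near-identical pair. Leaving out 1 sample gave 0 to 1. For high-risk papillomas over normal skin, 2 as reported, it was 3 after quantile or scale normalization (Nqo1 added), 1 with genes measured in every sample (4 of the 10, without Txn1), the set as a block, within set A, only the 2 groups, and the set as a block without the pair, and 0 within sets C and D and with the database number as a block. Leaving out 1 sample gave 1 to 2. For low-risk papillomas over normal skin, 1 as reported, it was 2 with array weights and without 4 samples (the pair, low-risk papilloma 6 and high-risk papilloma 5), and 0 with genes measured in every sample, the set as a block with or without the pair, within set D, and the replicate number as a block. Leaving out 1 sample gave 0 to 2. For carcinomas over low-risk papillomas, 0 as reported, it was 2 after quantile or scale normalization, with array weights, without low-risk papilloma 6 and high-risk papilloma 5, and without those 4 samples, and 1 without centring and with genes measured in every sample. Leaving out 1 sample gave 0 to 2. For carcinomas over high-risk papillomas, 1 as reported, it was 0 without centring, without the dye swap, with a looser filter, genes measured in every sample, the set as a block with or without the pair, within sets C and D, the replicate number as a block, and only the 2 groups. Leaving out 1 sample gave 0 to 1. Between high-risk and low-risk papillomas it was 0 throughout.

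The replicate number as a block ended the calls of Txn1 in low-risk papillomas (2.22, adjusted p = 0.0513, against 0.00521 to 0.628 over the alternatives) and of Gsr between carcinomas and high-risk papillomas (1.58, adjusted p = 0.0913). It kept those of Gsr in carcinomas and of Txn1 and Prdx1 in high-risk papillomas over normal skin. No pairing of samples with the same number was seen. Of the pathway genes, quantile normalization called 9 in carcinomas over normal skin, 1 over low-risk papillomas and 2 in high-risk over low-risk papillomas, and scale normalization 7 and 1 in the first 2. The shares of all probes called after these normalizations are not given here, so the counts cannot be read as particular to the pathway. With the set as a block the count of pathway genes was 0 in all comparisons, and between tumour groups that fit called 0 of all probes. Without the pair the count of pathway genes was 6, 13 and 17 in carcinomas, high-risk and low-risk papillomas over normal skin. The alternatives that leave out low-risk papilloma 6 or high-risk papilloma 5, that combine the set with leaving out the pair, and the pathway counts without the pair were chosen after seeing the data. The cause of these changes was not tested. In a fit within a set with 1 sample of a group, that sample is assumed to vary like the others.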
